A study of Homo sapiens with 3 samples.

Results

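The genes that encode the protein subunits of the mitochondrial respiratory chain were followed across 3 HT1080 cell lines, with 1 Affymetrix array for each line. Members were the genes whose symbols name a subunit of NADH dehydrogenase (NDUFA, NDUFB, NDUFC, NDUFS and NDUFV), succinate dehydrogenase (SDHA to SDHD), the cytochrome bc1 complex (UQCR), cytochrome c oxidase (COX4 to COX8) or ATP synthase (ATP5), read from probe sets annotated with 1 symbol only. Antisense and pseudogene symbols were left out. The rule took 77 of the 19775 genes on the array. Of these, 76 encode proteins and are described here by complex: 32 belong to complex I, 3 to complex II, 6 to complex III, 17 to complex IV and 18 to complex V, the ATP synthase, which is counted with the chain by custom. The remaining gene, NDUFV1-DT, is a noncoding transcript next to NDUFV1, with signals of 130 (Zeo), 77.6 (RECK) and 118 (RECK/4NQ), and it entered no count.

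HT1080 is an established line from a human fibrosarcoma. The Zeo line was mock-transfected, the RECK line carries a pZeoSV2(+) vector for RECK, a membrane-anchored inhibitor of matrix metalloproteinases, and the RECK/4NQ line carries the vector for RECK with 4 N-glycosylated asparagines changed to glutamine. All lines were grown in medium with 10% FCS and 50 µg/mL Zeocin, the drug used to select transfected cells, and whether each line is a clone or a pool is not in the labels. The comparisons ask how these transcripts differ in the line that overexpresses RECK and in the line whose RECK lacks the glycosylation sites. There is 1 array per line, so no value has a replicate error and no difference was tested, and an effect of the transfected gene cannot be told apart from any other way in which the lines differ. Both comparisons with Zeo use the same Zeo array.

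The respiratory chain sits in the inner mitochondrial membrane. Complexes I and II pass electrons from NADH and succinate to ubiquinone, complex III passes them to cytochrome c and complex IV to oxygen; the proton gradient built by complexes I, III and IV drives ATP synthesis by complex V. A few core subunits are encoded in mitochondrial DNA, and nearly all the others, including every member here, are encoded in the nucleus, made in the cytosol and imported. Their transcripts are abundant in most cell types, and their promoters are known for sites of the transcription factors NRF1, YY1 and the ETS factor GABP.

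Stretches of 5 promoters are shown because 4 of them belong to members at least 1.5-fold below both other lines on the RECK/4NQ array, described below. The fifth, COX5B, belongs to a gene whose bright probe sets had nearly even signals on all arrays. The sequences are from RefSeq (GRCh38.p14), 5′ to 3′ on the gene's strand, and end at the base before the annotated start. They lie at chrX:77899298-77899467 (COX7B, plus strand), chr20:59032336-59032505 (ATP5F1E, minus), chr10:103396476-103396645 (ATP5MK, minus), chr11:112086753-112086872 (SDHD, plus) and chr2:97645922-97646061 (COX5B, plus). Capitals mark GCATGCGC (the NRF1 core), CCGGAAG (an ETS core), AAGATGGCG (the YY1 core) and GGGCGG (an SP1 core) on either strand.
COX7B: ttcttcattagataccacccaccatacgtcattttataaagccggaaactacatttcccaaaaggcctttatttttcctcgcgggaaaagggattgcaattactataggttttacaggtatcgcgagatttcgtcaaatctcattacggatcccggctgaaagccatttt
ATP5F1E: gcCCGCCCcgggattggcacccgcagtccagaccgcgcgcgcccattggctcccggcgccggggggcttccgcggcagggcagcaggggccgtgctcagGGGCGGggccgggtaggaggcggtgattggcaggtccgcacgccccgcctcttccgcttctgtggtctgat
ATP5MK: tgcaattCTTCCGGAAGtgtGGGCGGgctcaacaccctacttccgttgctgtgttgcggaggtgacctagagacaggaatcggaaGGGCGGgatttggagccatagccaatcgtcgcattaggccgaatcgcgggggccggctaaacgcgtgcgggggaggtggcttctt
SDHD: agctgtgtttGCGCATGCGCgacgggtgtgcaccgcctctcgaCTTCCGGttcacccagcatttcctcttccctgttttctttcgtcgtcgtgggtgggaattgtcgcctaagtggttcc
COX5B: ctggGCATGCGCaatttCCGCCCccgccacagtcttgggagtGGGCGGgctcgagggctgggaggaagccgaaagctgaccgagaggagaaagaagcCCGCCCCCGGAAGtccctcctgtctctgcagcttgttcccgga

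Promoter windows of 300 bases, 250 before the start and 50 after it, were found for 65 of the 76 members, 78 windows in all because 9 members have several starts. The NRF1 core was in 17.9% of the member windows, against 3.05% of all 35116 windows in the table and 3.74% of the 22198 windows of protein-coding genes. The ETS core was in 25.6% of member windows and 12.8% of protein-coding windows, and the YY1 core in 11.5% and 2.41%. The GC-rich SP1 core was in 62.8% and 56.3%, and CCAAT, searched as a motif not tied to mitochondrial genes, in 34.6% and 34.7%. Matches can overlap, as in ATP5MK, where the ETS core is read on both strands over shared bases. At least 1 of the NRF1, ETS and YY1 cores was in 43.6% of member windows, against 17.5% of protein-coding windows. By gene, 32 of the 65 held such a core in any of their windows. Of the 6 members at least 1.5-fold below both other lines on the RECK/4NQ array, 5 had a window. Of these 5, 3 held such a core, NDUFA5 at only 1 of its starts. These 5 genes are too few to set against the shares. The COX7B stretch held none of the capitalised motifs. These are matches of letters in a window, and the motifs were chosen with earlier results known.

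Each signal below is a MAS5 intensity on a linear scale, from the brightest probe set of the gene. A signal of 12.2, the 40th percentile of all signals, served as a floor for low values. On that scale 72 of the 76 members were measured on all arrays, and 60 were among the 1978 brightest genes, the top 10%. ATP5MF, COX7A1 and COX8C were below the floor on all arrays, and COX7B2 on 1. ATP5MF, a membrane subunit of ATP synthase, is represented by a dim probe set, the only one annotated with its symbol alone. Of the markers of the labelled cell type, 10 of 11 fibroblast and fibrosarcoma genes were above the floor on all arrays. VIM read 10307, 10704 and 10611 in Zeo, RECK and RECK/4NQ. Others were dim, such as THY1 at 47.6, 45.9 and 50.7, near the neuron gene SNAP25 at 63.4, 45.5 and 57.2. COL1A2 was below the floor in RECK/4NQ. Passing the floor thus does not by itself mark a cell type. None of 8 epithelial markers was above the floor on all arrays, and 6 were below it throughout. Of dimmer marker lists, 2 of 9 muscle, 1 of 5 leukocyte, 3 of 4 hepatocyte and 3 of 5 neuron genes were above the floor on all arrays, with summed signals of at most 282 for a list on any array. The sums of all signals were 12516990 (Zeo), 11372165 (RECK) and 12349815 (RECK/4NQ), and the 3′ to 5′ ratio of GAPDH, a check of RNA integrity, lay between 0.923 and 0.979. In bulk RNA, fewer cells that express a gene and less of its RNA per cell cannot be told apart.

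As a group the respiratory chain genes had small median differences between the lines, and the members lay slightly above the median gene on both RECK arrays. As a share of the signal of all genes, the summed member signal was 3.23% (Zeo), 3.30% (RECK) and 3.60% (RECK/4NQ). Over the 73 members whose mean level reached the floor, the median log2 ratio of RECK over Zeo was -0.12, with 20 members above 0, and the median of all 14282 such genes was -0.20. For RECK/4NQ over Zeo the members' median was 0.11, with 51 of 73 above 0, and that of all genes was -0.12. The members thus lay 0.07 above the median gene in RECK and 0.23 above it in RECK/4NQ, where 58 of 73 were above the median of all genes; after quantile normalisation the latter distance was 0.12. Set beside the brightest 10% of genes, whose medians were -0.19 and -0.0023, the members' medians were higher in both comparisons. RECK over RECK/4NQ gave a median of -0.24 for members, -0.06 for all genes and -0.21 for the brightest 10%. The sign of the members' median against 0 for RECK over Zeo depends on how the arrays are scaled: it was 0.07 after median centring and 0.05 after quantile normalisation.

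The ratios of members were also more tightly grouped than those of all genes, and less clearly so when set against bright genes. The interquartile range of the log2 ratio of RECK over Zeo was 0.28 over members, 0.69 over all genes and 0.42 over the brightest 10%. For RECK/4NQ over Zeo it was 0.31, 0.68 and 0.35, and for RECK over RECK/4NQ 0.42, 0.77 and 0.45. The range was wider among the dimmer members. Over the 37 at or below the members' median level it was 0.46 for RECK/4NQ over Zeo, and over the 36 above it 0.22. For RECK over RECK/4NQ these were 0.76 and 0.27. Members also have 45 further probe sets above the floor on all arrays, and 32 of these had the sign of the brightest one when RECK was compared with Zeo, 33 when RECK/4NQ was, and 36 when RECK was compared with RECK/4NQ.

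**Figure D1:**
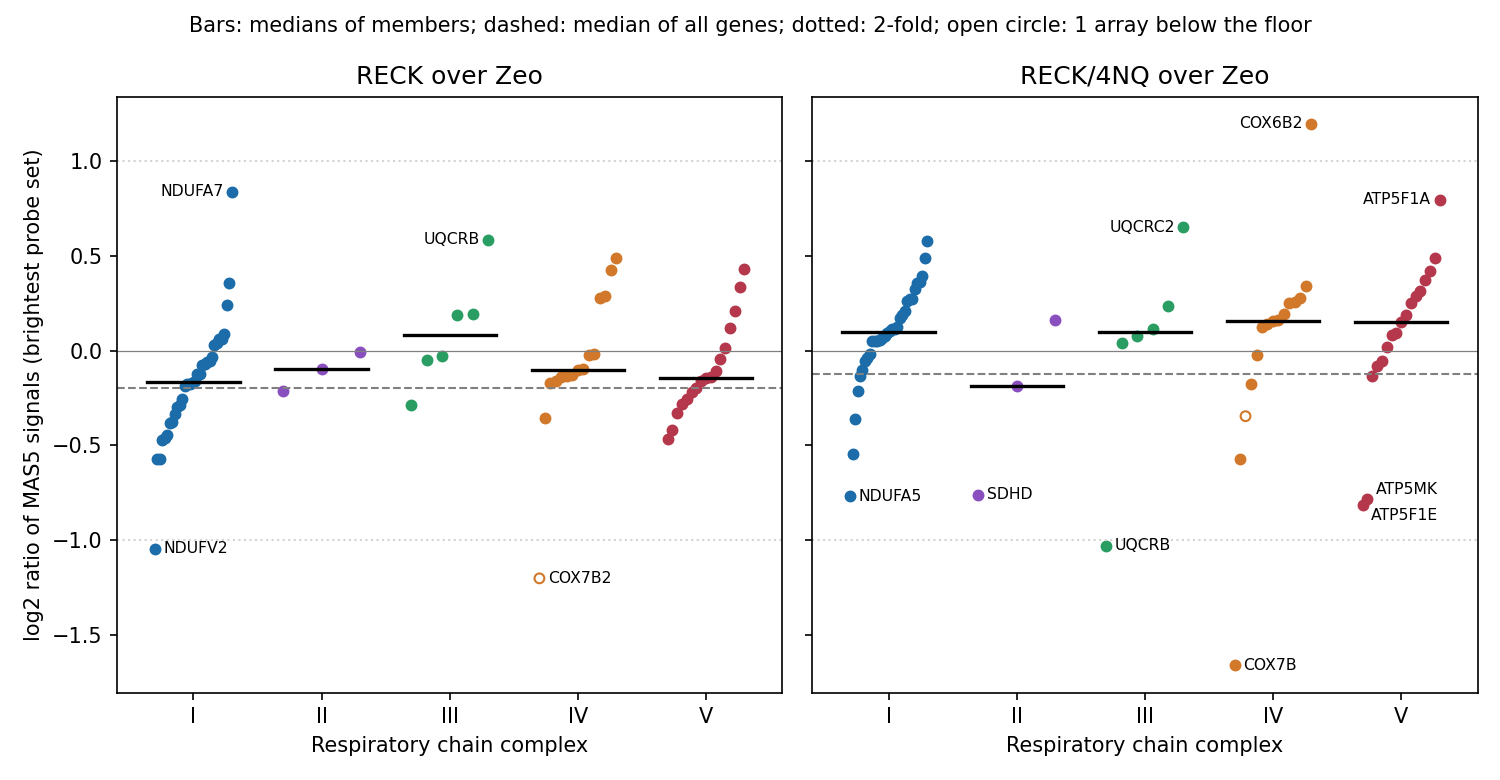
Log2 ratios of MAS5 signals for the members of complexes I to V, RECK over Zeo and RECK/4NQ over Zeo, with 1 point per gene, bars at each complex's median and a dashed line at the median of all genes. Most members lie in a narrow band near the bars, and labelled genes differ at least 1.5-fold, with COX7B at -1.66 the farthest below in RECK/4NQ and NDUFV2 at -1.04 the lowest in RECK of those measured on both arrays.

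Few members differed 2-fold. Such a difference was called where both signals reached the floor, or where 1 was under it and the other at least 2 times as high as the floor. For RECK over Zeo 0 of 76 were 2-fold higher, against 4.03% of all genes and 0.708% of the brightest 10%, and 2 were 2-fold lower, NDUFV2 and COX7B2, against 6.7% and 1.87%. For RECK/4NQ over Zeo 1 member was 2-fold higher, COX6B2, against 2.81% and 0.303%, and 2 were lower, COX7B and UQCRB, against 7.13% and 0.607%. For RECK over RECK/4NQ 3 members were higher, COX7B, UQCRB and ATP5F1E, against 5.76% and 1.21%, and 0 were lower, against 4.47% and 1.77%. Bright genes thus differed less often than all genes, and 60 members are among them; of these 60, NDUFV2 was the only one 2-fold lower in RECK than in Zeo, none differed 2-fold between RECK/4NQ and Zeo, and ATP5F1E was 2-fold higher in RECK than in RECK/4NQ.

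At 1.5-fold, 2 members were higher and 2 lower for RECK over Zeo, where 9.37% and 18.4% of all genes were, and 2.73% and 11.9% of the brightest 10%. For RECK/4NQ over Zeo 3 were higher and 6 lower, against 7.89% and 17.7% of all genes and 2.68% and 4.1% of the brightest. Median centring turned this balance to 12 higher and 2 lower. The median log2 ratio of all genes in this comparison was then 0.12, and the shares above are for unscaled signals. For RECK over RECK/4NQ 7 were higher and 10 lower, against 13.6% and 13.3%, and 4.2% and 12.3% of the brightest; after quantile normalisation 5 were lower. Of the 60 members among the brightest genes, RECK had 1 that was 1.5-fold lower than in Zeo, and RECK/4NQ had 2.

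Among the complex I genes, the NADH-oxidising module held the lowest ratio of RECK to Zeo of any member measured on both arrays. NDUFV2, an iron-sulfur subunit at the entry of electrons, had signals of 1861 (Zeo), 902 (RECK) and 1694 (RECK/4NQ). RECK stood below both other lines, 2.06-fold below Zeo and 1.88-fold below RECK/4NQ, and Zeo and RECK/4NQ differed 1.10-fold. Its log2 ratio to Zeo was at -2.40 spreads from the median of all genes. A spread is the scaled median absolute deviation over the 1000 genes closest in mean signal, a scale in which noise and real differences are mixed. The gene has 1 probe set. It lies on chromosome 18. Its 10 nearest genes measured on all arrays, 5 on each side, had a median log2 ratio of -0.84 for RECK over Zeo, so they were lower as well. For RECK/4NQ over Zeo their median was -0.42 and NDUFV2 was at -0.14. For RECK over RECK/4NQ it was -0.26 and NDUFV2 was at -0.91. The part of these genes in the result was not tested. NDUFV1, which binds NADH and FMN, had signals of 2555, 1720 and 2207 in the same order and was 1.49-fold lower in RECK. Its dim second probe set went otherwise, at 38.8, 48.0 and below the floor, with RECK highest. NDUFS1, the large iron-sulfur subunit, was at 89.5, 85.1 and 115, and was highest in RECK/4NQ. Its other probe set above the floor on all arrays read 52.9, 30.4 and 56.6, with RECK 1.74-fold below Zeo.

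NDUFS3 and NDUFS7 are core subunits on the way from the NADH module to ubiquinone, and neither differed 1.5-fold between RECK and Zeo. NDUFS3 had signals of 3503 (Zeo), 2355 (RECK) and 3646 (RECK/4NQ), and NDUFS7, which carries the last iron-sulfur cluster before ubiquinone, 2386, 1833 and 2472. RECK was lowest for both, 1.49-fold and 1.30-fold below Zeo, while Zeo and RECK/4NQ differed 1.04-fold. Of 32 complex I genes, 24 had a ratio below 0 for RECK over Zeo, as did 9297 of the 14282 genes, and the complex I median of -0.17 was close to that of all genes, with 20 of the 32 above the latter. It was 0.026 with median centring and -0.0050 after quantile normalisation. For RECK/4NQ over Zeo 23 of 32 were above 0, with a median of 0.10 (0.35 with median centring, where that of all genes was 0.12). For RECK over RECK/4NQ, 27 of 32 were below 0 and the median was -0.30, or -0.12 after quantile normalisation.

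Accessory subunits of complex I varied in both directions. NDUFA7 had signals of 441 (Zeo), 790 (RECK) and 532 (RECK/4NQ), 1.79-fold higher in RECK than in Zeo. Its dimmer probe set read 71.3, 63.7 and 36.2, which does not show the higher RECK signal. NDUFB3, of the membrane arm, was at 632, 809 and 491, highest in RECK and lowest in RECK/4NQ. NDUFB10 and NDUFB6, also of the membrane arm, went the other way: NDUFB10 read 6593, 6873 and 9834, and NDUFB6 1238, 1274 and 1738. RECK/4NQ was the highest line for both, 1.49-fold and 1.40-fold above Zeo. NDUFA5, a dim accessory subunit of the peripheral arm, read 52.7, 53.9 and 30.9, with RECK/4NQ 1.70-fold below Zeo. NDUFS4, a subunit added late to the NADH module and known from Leigh syndrome, read 127, 112 and 86.8. NDUFA3, at 2099, 1524 and 2533, was 1.66-fold lower in RECK than in RECK/4NQ, and NDUFA10 and NDUFA12 were 1.58-fold and 1.56-fold lower in that comparison. After quantile normalisation these 3 genes and NDUFS3 were less than 1.5-fold apart there, with log2 ratios of -0.56, -0.50, -0.46 and -0.46. Averaging its probe sets brought NDUFA10 to -0.055, an average that includes probe sets below the floor, taken as read.

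Complex II links the citric acid cycle to the chain. SDHD, a membrane anchor that helps bind ubiquinone, had signals of 405 (Zeo), 379 (RECK) and 239 (RECK/4NQ), and RECK/4NQ was lowest, 1.69-fold below Zeo. Its promoter stretch above holds an NRF1 and an ETS core. SDHC, the other anchor, read 876, 872 and 979, with RECK/4NQ highest rather than lowest. This contrast between the anchors depended on the probe set. A further SDHC probe set read 668.5, 723 and 627.2, with RECK/4NQ lowest. Those reading 853.4, 870.5 and 976.2, then 603, 633.1 and 776.9, and 60.1, 51.9 and 87.1 had it highest. SDHA, the catalytic flavoprotein, read 2077, 1794 and 1822, with both RECK lines slightly below Zeo.

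In complex III, UQCRB, a small subunit near the ubiquinone site, had the widest range. Its signals were 425 (Zeo), 638 (RECK) and 208 (RECK/4NQ). RECK stood 1.5-fold above Zeo and 3.07-fold above RECK/4NQ, and RECK/4NQ was 2.04-fold below Zeo. Another probe set showed the same order at 333, 437 and 137, a dimmer one read 43.2, 43.5 and 34.2, and the last was below the floor throughout. Both probe sets with the low RECK/4NQ signal are of the kind that may hybridise to several transcripts. Without such probe sets UQCRB had log2 ratios to Zeo of 0.01 in RECK and -0.34 in RECK/4NQ, the lines stood 0.35 apart, and no difference reached 1.5-fold. Averaging all its probe sets turned the ratio of RECK/4NQ to Zeo from -1.03 to 0.34. That average includes the probe set below the floor, at 0.44, 1.12 and 7.17, as read rather than raised to the floor. Each UQCRB probe set above the floor had a ratio below 0. UQCRC2, a core protein, read 364, 416 and 571, highest in RECK/4NQ, and a second probe set gave 202, 269 and 333 in the same order. UQCRC1, its partner, read 5853, 4798 and 6015 and was lowest in RECK. The small subunits UQCR10 (5748, 6550 and 6761) and UQCR11 (3595, 3477 and 3794) differed by less than 1.2-fold on these probe sets. Their dimmer probe sets differed more, at 167, 222 and 207 for UQCR10 and 213, 131 and 226 for UQCR11.

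Complex IV held the largest difference of any member measured on all arrays. COX7B, a small subunit of the membrane part encoded on the X chromosome, had signals of 804 (Zeo), 1129 (RECK) and 254 (RECK/4NQ). RECK/4NQ was far below both others, 3.16-fold below Zeo and 4.44-fold below RECK, and RECK was 1.40-fold above Zeo. The ratio of RECK/4NQ to Zeo was at -4.43 spreads from the median of all genes. Its dimmer probe set read 18.0, 18.6 and 13.0, close to the floor, with the same line lowest. The 10 nearest genes measured on all arrays had a median log2 ratio of 0.10 for RECK/4NQ over Zeo, and 2 of them were at least 1.5-fold lower. COX6C, another small subunit, read 1347, 1644 and 1192, also highest in RECK and lowest in RECK/4NQ, with differences under 1.5-fold. COX6B1, a subunit on the outer face, read 5179, 4634 and 6557, and COX5A and COX5B were within 1.25-fold across lines on their brightest probe sets. A dimmer COX5A probe set read 91.7, 120 and 158, highest in RECK/4NQ. The dimmest COX5B probe set read 106, 167 and 140, highest in RECK, and the other bright ones were near even.

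Several complex IV subunits come as isoform pairs of ubiquitous and tissue-restricted forms. COX4I1, the common form, read 9068, 8930 and 10132, and COX4I2, the lung form also induced by hypoxia, 61.7, 48.2 and 41.6. COX4I1 was near even and COX4I2 was lowest in RECK/4NQ, with a log2 ratio of -0.57 to Zeo. COX6A1 read 7938, 9631 and 8840, while the heart and muscle form COX6A2 read 52.1, 51.4 and 59.7. Neither form differed 1.5-fold between lines. COX7A2 was at 8838, 8239 and 8714 and COX7A2L, which joins complexes III and IV, at 1856, 1691 and 2212, and the muscle form COX7A1 was below the floor. COX8A, at 6990, 6404 and 8468, was near even, and its testis form COX8C was below the floor.

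The testis forms COX6B2 and COX7B2 were dim and differed more. COX6B2 read 23.6 (Zeo), 31.7 (RECK) and 54.1 (RECK/4NQ), so RECK/4NQ was highest, 2.30-fold above Zeo. COX7B2 read 28.2 in Zeo and 22.2 in RECK/4NQ and was below the floor in RECK, which puts it at least 2.30-fold lower there than in Zeo. Both lie within a few times the floor, and a floor raised to the 60th percentile of signals left neither 2-fold different, COX7B2 having a log2 ratio of -0.019. They were the only members called at 2-fold against Zeo besides NDUFV2, COX7B and UQCRB.

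In ATP synthase, the alpha and beta genes of the catalytic head had the same order of lines, and the genes of the rotating stalk had others. The order of the head genes, RECK lowest and RECK/4NQ highest, is also that of genes in other complexes, such as NDUFS3, UQCRC1 and COX5A. ATP5F1A, the alpha subunit, had signals of 3633 (Zeo), 3246 (RECK) and 6313 (RECK/4NQ), with RECK/4NQ highest, 1.74-fold above Zeo and 1.94-fold above RECK. Its other probe set was below the floor on all arrays, so without the probe set used, which may hybridise to several transcripts, there is no measured ratio. The 10 nearest genes on chromosome 18 measured on all arrays had a median log2 ratio of 0.39 for RECK/4NQ over Zeo, also above that of all genes. Their part in the result was not tested. ATP5F1B, the beta subunit, which pairs with alpha in equal number, read 8441, 6956 and 8991, within 1.3-fold. ATP5F1C, the gamma subunit of the rotating stalk, read 921, 1161 and 935, highest in RECK. ATP5F1D, the delta subunit, read 3427, 2480 and 3303, lowest in RECK. Its other probe set read 850.5, 758.3 and 683.7, with RECK/4NQ lowest.

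ATP5F1E, the epsilon subunit at the foot of the same stalk, read 1315 (Zeo), 1776 (RECK) and 747 (RECK/4NQ). The order matched that of COX7B and UQCRB, RECK highest and RECK/4NQ lowest, 2.38-fold apart. Its dim second probe set was above the floor in Zeo only, at 25.9. ATP5MK, a small membrane subunit also called DAPIT, read 5268, 4781 and 3056 and was lowest in RECK/4NQ, 1.72-fold below Zeo. The gene has 1 probe set, and its ratio to Zeo was at -3.14 spreads from the median.

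Genes of the peripheral stalk differed in the order of the lines, none by 1.5-fold against Zeo. ATP5PD read 3084, 2989 and 4321, and ATP5PO, the stalk's cap on the head, 2899, 2493 and 3754. RECK/4NQ was highest for both, 1.40-fold and 1.30-fold above Zeo. ATP5PB, also of the stalk, read 1096, 955 and 1000, highest in Zeo, and ATP5PF 2412, 2624 and 2677, with both RECK lines above Zeo. The genes ATP5MC1, ATP5MC2 and ATP5MC3 encode the same mature ring subunit: ATP5MC1 read 2444, 1831 and 3269, ATP5MC2 5825, 4643 and 6176, and ATP5MC3 4803, 4341 and 5873. All were in the order RECK, Zeo, RECK/4NQ from low to high. ATP5IF1, the inhibitor of ATP hydrolysis by the enzyme, read 936, 1081 and 1066. Its other probe sets read 890, 945 and 819, and 181, 261 and 135, so RECK was above Zeo on each and RECK/4NQ above Zeo on the brightest only. The complex V median was -0.15 for RECK over Zeo and 0.15 for RECK/4NQ over Zeo. Neither sign held under every alternative: the first was 0.045 with median centring, and the second -0.074 without probe sets that may hybridise to several transcripts, where 14 of the genes had a probe set left. RECK over RECK/4NQ had a median of -0.37 in complex V, and 0.34 without those probe sets.

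**Figure D2:**
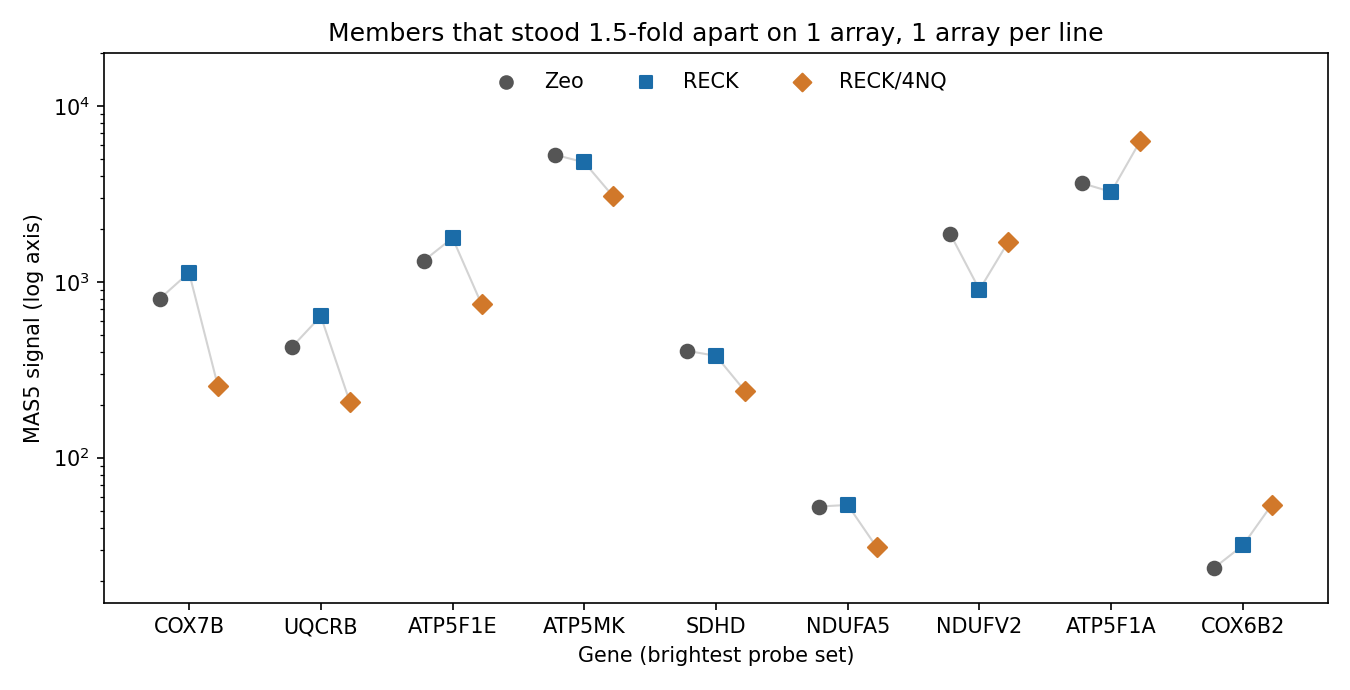
MAS5 signals (log axis) of the 9 members that differed at least 1.5-fold from both other lines on 1 array, with 1 symbol per line. RECK/4NQ is lowest for COX7B, UQCRB, ATP5F1E, ATP5MK, SDHD and NDUFA5 and highest for ATP5F1A and COX6B2, and RECK is lowest for NDUFV2.

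Members that stood at least 1.5-fold apart from both other lines on 1 array were counted among those measured on all arrays. On the RECK/4NQ array 6 of 72 were below both others, 1 or more from each complex, where 7.5% of 12406 genes were, and the members' share was near this background. On the same array 2 were above both others, against 3.17% of genes. In RECK 1 was above, UQCRB, against 4.34%, and 1 below, NDUFV2, against 8.28%. None stood apart in Zeo, where 7.11% of genes were above and 2.98% below the other arrays. Among the brightest 10% of genes 1.37% were below both others in RECK/4NQ, 27 genes, of which ATP5F1E and ATP5MK are members. With median centring, 2 members were below both others in RECK/4NQ.

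The other genes of the pathway give the setting. Their numbers past 2-fold stand beside the shares of all genes by the same rule. In RECK 6.7% of all genes were 2-fold lower than in Zeo and 4.03% higher, and in RECK/4NQ 7.13% and 2.81%. Of the factors that assemble the complexes, those for complex I (16 genes) had no member past 2-fold, with medians of -0.24 for RECK over Zeo and 0.04 for RECK/4NQ over Zeo. Of the 23 factors for complex IV, 1 was lower in RECK and 2 in RECK/4NQ. COX11, a copper chaperone, read 120 (Zeo), 57.8 (RECK) and 46.9 (RECK/4NQ), low in both RECK lines. COA5 read 146, 232 and 66.7, the same order of lines as COX7B. For complexes III and II, 1 of 6 and 1 of 4 factors were 2-fold lower in RECK/4NQ than in Zeo. LYRM7, which helps insert the complex III iron-sulfur protein, read 60.1, 45.5 and 22.8, and SDHAF3, a complex II factor, 31.0, 27.4 and below the floor. RECK/4NQ was lowest for both. None of the 5 factors for complex V passed 2-fold.

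Among 8 electron carriers and other subunits outside the symbol rule, cytochrome c (CYCS) read 1394, 1166 and 806 and cytochrome c1 (CYC1) 9254, 8628 and 9234, and neither passed 2-fold. GPD2, a glycerol phosphate dehydrogenase of the inner membrane, did not reach the floor in Zeo and read 36.1 in RECK and 18.0 in RECK/4NQ, at least 2.95-fold higher in RECK than in Zeo. Of 12 citric acid cycle enzymes only IDH2, an NADP-dependent isocitrate dehydrogenase, passed, with 132, 340 and 170, highest in RECK by 2.58-fold over Zeo. Of 72 mitochondrial ribosomal proteins 1 was lower in RECK, MRPS2, and 2 in RECK/4NQ, MRPL42 and MRPL50. MRPL42 read 172, 193 and 84.9, with RECK/4NQ lowest. For RECK over RECK/4NQ 1 of the 72 was 2-fold higher, MRPL42, against 5.76% of all genes. In that comparison 2 were lower, MRPL57 and MRPS31, against 4.47%, and both were highest in RECK/4NQ. The medians of the 72 against Zeo were -0.20 and 0.02, below those of the respiratory chain members in each comparison. None of 22 import genes passed 2-fold against Zeo.

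The 16 regulators of mitochondrial transcription and biogenesis that are not members had medians of -0.34 for RECK over Zeo and -0.30 for RECK/4NQ over Zeo, both under the members' medians. TFAM, which packs mitochondrial DNA and helps start its transcription, read 122.8 (Zeo), 74.8 (RECK) and 60.1 (RECK/4NQ). It was 2.04-fold lower in RECK/4NQ than in Zeo and was the only one of these 16 past 2-fold against Zeo. The coactivator PPARGC1A was below the floor on all arrays. Of the genes in mitochondrial DNA 4 had a probe set. ATP6 read 13754, 15126 and 15123, ND2 16240, 16074 and 16099, and ND4 16583, 16340 and 17150. These were level across the lines. ND6, the gene on the opposite strand, read 5839, 1567 and 3401, 3.73-fold lower in RECK than in Zeo.

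**Figure D3:**
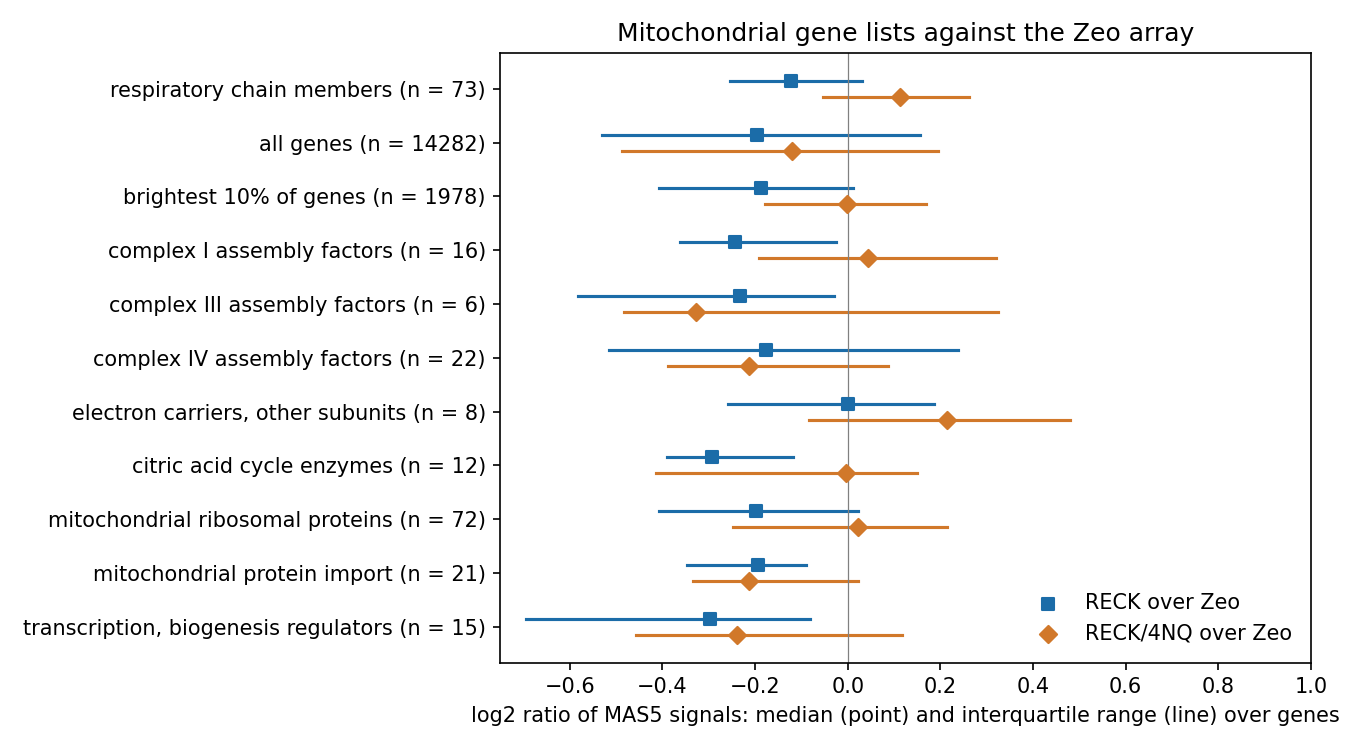
Median (point) and interquartile range (line) over genes of the log2 ratio of MAS5 signals, for respiratory chain members, all genes, the brightest 10% of genes and other mitochondrial lists, RECK over Zeo and RECK/4NQ over Zeo. The members' medians are -0.12 and 0.11, against -0.20 and -0.12 for all genes.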

How the data were processed

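Each probe set has 1 deposited intensity per array, made by MAS5 per the submitters' processing notes, on a linear scale. The MAS5 version and its scaling target are not stated. All else was computed here from these intensities, unscaled, in Python 3.11.15 with numpy 2.4.6 and pandas 2.3.3. Of 54675 probe sets, 41091 carried 1 gene symbol, 1801 several and 11721 none, and 62 were controls. A gene was its brightest probe set by mean log2 signal. Signals below the floor were set to it before log2 ratios were taken. With 1 array per line no test was possible.

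The named genes were every member past 2-fold, the 2 highest and 2 lowest of each complex per comparison, core subunits and tissue isoforms; a few genes this rule names are not analysed here. Members and lists were chosen with earlier results of these data known. The background of the brightest 10% of genes and the motif search were added after values were seen. The 7 alternatives changed the scaling, the floor or the choice of probe sets. Promoter sequences came from RefSeq, GRCh38.p14.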

Additional observations from a re-analysis of the deposited data

How the results depend on the processing

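No paired analysis was possible because each line has 1 array. Of the counts and medians, 175 values held, 50 moved and 13 changed sign over 7 alternatives. The relative medians and the number of members 1.5-fold below both other lines in RECK/4NQ were added after seeing the data.
Values are medians of log2 ratios or numbers of members, and causes were not tested. Median centring gave, for RECK over Zeo, 0.068 over members and 0.026, 0.096, 0.27, 0.090 and 0.045 for complexes I to V. For RECK/4NQ over Zeo it gave 0.36 over members and 0.35, 0.062, 0.35, 0.41 and 0.40. The medians of all genes in these comparisons were then -0.0048 and 0.12. With median centring 5 members were 1.5-fold higher, 1 was 2-fold higher and 1 was 2-fold lower in RECK than in Zeo. In RECK/4NQ these numbers were 12, 2 and 1, with 2 being 1.5-fold lower. In RECK 1 was 2-fold lower than in RECK/4NQ, and 2 were 1.5-fold below both other lines in RECK/4NQ.
Quantile normalisation gave, for RECK over Zeo, 0.048 over members and -0.0050, 0.084, 0.25, 0.057 and -0.013 for complexes I to V, and for RECK over RECK/4NQ -0.051, and -0.12, 0.17, 0.046, -0.11 and -0.21. Relative to all genes, the ratio of RECK/4NQ to Zeo was 0.12 and that of RECK to RECK/4NQ -0.044. With it 5 members were 1.5-fold higher, 1 was 2-fold higher and 1 was 2-fold lower in RECK than in Zeo, 1 was 2-fold lower in RECK/4NQ than in Zeo and 5 were 1.5-fold lower in RECK than in RECK/4NQ.
Averaging all probe sets gave -0.13 over members and -0.071 over complex V for RECK over RECK/4NQ. It turned ATP5PO to 0.051 there and UQCRB to 0.34 for RECK/4NQ over Zeo. Averages took signals below the floor as read, and the floor was applied to the average only. The UQCRB probe set at 0.44, 1.12 and 7.17 and the ATP5PO one at 4.00, 13.1 and 4.32 entered in this way. The other ATP5PO probe sets had ratios of -0.59 and -0.85. Numbers in RECK against Zeo became 4 (1.5-fold higher), 7 (1.5-fold lower) and 5 (2-fold lower), in RECK/4NQ against Zeo 2 (2-fold higher) and 4 (2-fold lower), and 1 was 2-fold lower in RECK than in RECK/4NQ.
Without shared probe sets 63 members were left. Complex V was at -0.028 in RECK and -0.074 in RECK/4NQ, both against Zeo, and at 0.34 when RECK was set against RECK/4NQ, 4 members were 1.5-fold higher and 5 lower in RECK than in Zeo, and 0 were 2-fold higher and 1 lower in RECK/4NQ.
With the floor at percentile 20, 1 member was 2-fold higher in RECK than in Zeo and 1 was 2-fold lower in RECK than in RECK/4NQ. At the higher floors, 1 was 1.5-fold and 2-fold lower in RECK than in Zeo and 0 were 2-fold higher in RECK/4NQ. A single array per line and signals near the floor limit the precision, most for COX6B2, COX7B2 and NDUFA5.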
